A study of Mus musculus with 394 samples.

Results

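The sorting experiment described here compared the RNA of fluorescent striatal synaptosomes with that of all small particles from the same preparations. It used 12 of the 394 libraries of the series, chosen by their labels: striatal synaptosome libraries of genotype VGLUT1_VENUS, 3 made after fluorescence activated synaptosome sorting (FASS) and 9 made from small particles, the latter being 3 technical repeats of each of 3 preparations. The repeats were summed, which gave 3 FASS samples and 3 small particle samples paired by preparation. The preparations carry the numbers 7, 8 and 9 in the sample sheet of the study.

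Synaptosomes are nerve terminals that pinch off and reseal when brain tissue is homogenized, often with a piece of the postsynaptic membrane attached. VGlut1, the product of *Slc17a7*, is the transporter that loads glutamate into synaptic vesicles. In the striatum it marks mainly the terminals of neurons whose cell bodies lie in the cortex, so its mRNA is made outside the dissected tissue. Local translation at synapses would need mRNAs and ribosomes within such particles. FASS sends single fluorescent particles to a collection tube by flow cytometry. Small particle samples passed the same gate for size and the same sorter with no selection for fluorescence.

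The VGLUT1_VENUS mice carry a knock-in that fuses the fluorescent protein VENUS to the endogenous transporter, so every sample compared here, sorted or not, came from tagged animals aged P90-150. Their background strain, the number of animals pooled in each preparation and any treatment are not given in the sources used here. As the study describes the sort, the gate was meant to leave out aggregates, and sorted samples still held particles without VENUS. For comparison, the 3 cortical preparations of the same genotype and age and the 6 striatal preparations labelled DATCrePos_AAV_EGFP, also P90-150, stood on the same plate. In the latter, a virus expressed EGFP in dopamine neurons with Cre under the dopamine transporter gene. All 24 summed samples of the plate entered one fit, so that they shared one estimate of the spread.

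Each value was a count of unique molecular identifiers (UMIs), which stand for single captured RNA molecules read near their 3′ end. Small particle samples held 106266, 96339 and 89143 UMIs in preparations 7, 8 and 9, from wells of 25557 to 37777 UMIs. The FASS libraries held 23709, 16947 and 21376 UMIs. The mean total was 97249 ± 8598 UMIs for small particles and 20677 ± 3435 UMIs for FASS (SD, n = 3 each), a 4.74-fold difference. Within preparations the ratio was 4.48, 5.68 and 4.17. The totals did not overlap. The exact two-sided permutation test, which ignored the pairing by preparation, gave p = 0.1, the smallest that 3 against 3 can reach. Small particle samples were read in 3 wells each, however, and the mean small particle well held 1.49, 1.89 and 1.39 times the UMIs of the FASS library of its preparation. How many particles entered each library was not used here, so these totals are no yield per particle.

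The mRNA of the tagged transporter was too scarce to check the sort. *Slc17a7* was counted at 2, 4 and 1 UMIs in small particles and at 1, 2 and 1 UMIs in FASS. Pooled over the libraries, this was 64.5 CPM in FASS (counts scaled to a common library total, exact 95% interval 17.6 to 165) and 23.99 CPM in small particles (9.65 to 49.4). The intervals overlap, and edgeR's quasi-likelihood test gave a log2 difference of 0.94 (SE 1.06, adjusted p = 0.636). The VENUS sequence was not analysed here. *Slc17a6*, the transporter of subcortical glutamate neurons, *Th* and *Slc6a3*, which mark dopamine neurons, and *Cldn5* of endothelial cells were at 0 in all 6 samples, which allows up to 48.4 CPM in FASS and 10.3 CPM in small particles (3 UMIs of the pooled total). Intervals and limits cover counting error only.

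Both kinds of particle also held RNA of cells other than glutamate neurons. *Apoe*, the lipid carrier of astrocytes, stood at 3499, 4023 and 3052 scaled CPM in small particles and at 3829, 3805 and 3362 in FASS. Scaled CPM, called level from here on, is the UMI count divided by the total and by the scaling factor of the sample. *Cst3*, a protease inhibitor of microglia and astrocytes, stood at 3822, 5376 and 3858 in small particles and 5504, 4090 and 4638 in FASS. Neither passed the test between the fractions (log2 0.06, SE 0.27, adjusted p = 0.913 for *Apoe*, and log2 0.14, SE 0.27, adjusted p = 0.818 for *Cst3*, edgeR). *Mbp*, the myelin protein of oligodendrocytes, was at 3683, 3081 and 2087 against 2974, 2806 and 2511 (adjusted p = 0.911). *Penk*, made by striatal spiny neurons, was at 1270, 640 and 1368 against 1060, 999 and 936 (adjusted p = 0.903). The levels of these 4 genes overlapped between the fractions. For *Apoe* and *Cst3* this overlap rested on the scaling. As CPM of total UMIs, *Apoe* stood at 2851, 3457 and 2378 in small particles and 4724, 4721 and 3696 in FASS. *Cst3* stood at 3115, 4619 and 3006 against 6791, 5075 and 5099, so every FASS value of both genes was higher. The paper reports both mRNAs as enriched by sorting.

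Small particles of preparation 8 stood apart from the other preparations in lists of neuronal genes. The spiny neuron list made up 0.242% of UMIs there, against 0.421% and 0.433% in preparations 7 and 9, while FASS held 0.3501%, 0.431% and 0.416%. Dendritic genes made up 0.542% there, against 0.867% and 0.823%, and ribosomal protein genes 8.06%, against 6.02% and 6.08%. The 3 technical repeats of this sample were summed like the others. Without preparation 8, the median log2 fold change of FASS over small particles in the dendritic list was -1.31 in place of -0.81 and that of the cytoskeleton list -1.07 in place of -0.86, with 6 and 9 members lower past the test described further on.

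Sorting was accompanied by a shift in composition that held in each of the 3 preparations. Genes for cytosolic ribosomal proteins made up 6.02%, 8.06% and 6.08% of all UMIs in small particles of preparations 7, 8 and 9. In FASS they made up 12.2%, 12.2% and 11.2%, which is 1.76 times the small particle mean. Nuclear genes for the mitochondrial respiratory chain, most of them small subunits of the electron transport complexes, held 2.01%, 2.28% and 1.997% in small particles against 4.09%, 4.20% and 3.25% in FASS, a ratio of 1.84. Both groups had every FASS sample above every small particle sample.

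Of the ribosomal RNAs that the mitochondrion itself encodes, *mt-Rnr1* held 5.16%, 6.43% and 6.30% of UMIs in small particles and 4.40%, 3.86% and 4.49% in FASS, every FASS share being lower. *mt-Rnr2* held 6.71%, 7.67% and 7.85% against 8.38%, 8.68% and 8.93%, every FASS share being higher. Their sum overlapped between the fractions, at 11.9%, 14.1% and 14.1% against 12.8%, 12.5% and 13.4%. The other mitochondrially encoded genes together held 4.20%, 5.70% and 5.19% against 7.77%, 6.95% and 7.09%, with no overlap. A set of 7 loci took in ribosomal RNA, loci beside it, short repeat-like RNAs and the protein-coding gene *Lars2*, which shares sequence with another of them. Its share was 5.25%, 5.27% and 4.77% in small particles and 1.19%, 0.720% and 0.828% in FASS. These loci were picked after their values were seen. Shares add up to a whole, so the share of each group depends on the others, and no test was run on them. Nor can fewer particles with an RNA and fewer molecules of it per particle be told apart in these libraries.

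**Figure D1:**
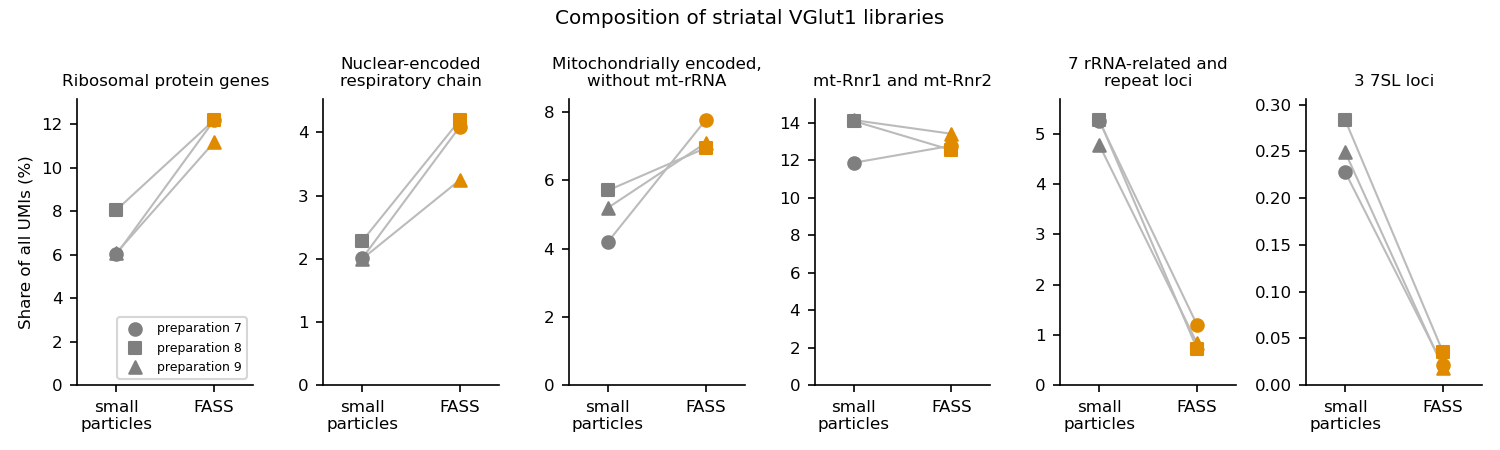
Share of all UMIs (%, vertical axis from 0) held by 6 gene groups in small particles (gray) and FASS (orange), with a symbol for each of the 3 preparations and lines joining the samples of a preparation. Ribosomal protein genes sit at 6.02% to 8.06% in small particles and at 11.2% to 12.2% in FASS, whereas the 7SL loci sit at 0.228% or more in small particles and at 0.0354% or less in FASS.

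Among the loci lower in FASS were those of 7SL RNA, the RNA backbone of the signal recognition particle, which brings ribosomes making secreted and membrane proteins to the endoplasmic reticulum. Its 3 annotated loci share sequence at their 5′ end, which is shown because reads from it cannot be told apart between loci. The first 30 bases of the annotated transcripts are printed, from GENCODE vM21, with capitals marking bases that are identical in all 3.
Rn7s2: GCCGGGCGCGGTGGCGCACGCCTGTAGTCC
Rn7s1: GCCGGGCGCGGTGGCGCACGCCTGTAGTCC
Gm26461: GCCGGGCGCGGTGGCGCACGCCTGTAGTCC
*Rn7s1* and *Rn7s2* are identical over all 300 bases, and *Gm26461*, of 290 bases, shares the first 104 with them. The split of UMIs among these loci is therefore uncertain, and their sum is the safer measure. Together they held 0.228%, 0.283% and 0.249% of UMIs in small particles and 0.0211%, 0.0354% and 0.0187% in FASS.

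*Rn7s2* (chr12:69361182-69361481, minus strand, GRCm38) was counted at 165, 169 and 139 UMIs in small particles and at 1, 2 and 2 in FASS. Its level was 1983 ± 70.0 against 71.5 ± 32.7 scaled CPM (SD, n = 3 each), a log2 fold change of -4.83 (SE 0.47, adjusted p = 1.25e-21). *Gm26461* was counted at 61, 90 and 74 UMIs against 3, 4 and 2 (log2 -2.91, adjusted p = 3.34e-08). *Rn7s1* had 16, 14 and 9 UMIs against 1, 0 and 0 (log2 -3.46, adjusted p = 0.0379). All 3 loci were lower in FASS in every preparation.

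Loci related to ribosomal RNA also fell. *Rn18s-rs5*, annotated as ribosomal RNA on chromosome 17 (chr17:39846353-39848827, minus strand), stood at 15508, 16865 and 15504 scaled CPM in small particles and at 1573, 856 and 1319 in FASS, a log2 fold change of -3.68 (SE 0.31, adjusted p = 1.59e-29). *Gm42418* lies over the same interval on the other strand (chr17:39846958-39848788) and fell with it (log2 -2.91, SE 0.29, adjusted p = 3.88e-21). Whether the counting used strand is not given in the sources used here, so the pair cannot be told apart. *Lars2*, the gene of the mitochondrial leucyl-tRNA synthetase, stood at 7990.5, 4397 and 7068 scaled CPM in small particles and at 615, 761 and 936 in FASS (log2 -3.06, SE 0.31, adjusted p = 1.06e-19). It shares a run of 52 bases with *Gm15564* (log2 -2.30, adjusted p = 1.12e-07), which begins as follows, with capitals marking shared bases, so that reads from this run could be counted at either locus.
Lars2 and Gm15564: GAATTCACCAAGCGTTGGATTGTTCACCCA

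A further 4 loci stood out for their level or change. *Kcns2*, named for a potassium channel subunit (chr15:34837355-34843407), held 30946, 31156 and 31224 scaled CPM in small particles and 2803, 2711 and 2851 in FASS. The log2 fold change was -3.48 (SE 0.29, adjusted p = 3.24e-29), and the fractions were far from overlapping. *Rcc2*, named for a chromosome condensation regulator, had 278, 211 and 255 UMIs against 5, 6 and 10 (log2 -3.46, adjusted p = 1.80e-19). *Hsd17b11* (chr5:103989762-104021919) and *Gm43333* (chr5:104070064-104072325) are near each other on the same strand. Their log2 fold changes were -2.38 (adjusted p = 1.23e-14) and -2.43 (adjusted p = 5.29e-15). UMIs read near a 3′ end do not show which part of a locus they came from, so these values belong to the loci and not to the encoded proteins.

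The test covered 3977 genes that reached 10 UMIs in the 6 samples together, and 14 of them were higher in FASS (0.352%) and 171 were lower (4.3%) at an adjusted p under 0.05, with preparation as a block. Before adjustment, 917 genes had a p under 0.05. Of the 171 genes, 165 were lower in all 3 preparations and 155 had no overlap between the fractions. Of the 14, 11 were higher in all 3 preparations without overlap. Over all genes tested, 137 (3.44%) had every FASS level above every small particle level and 982 (24.7%) had every one below. Without the preparation block the counts were 11 and 109.

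The balance of the directions rested on the scaling. Levels were scaled by median-of-ratios size factors. Taken relative to the total UMIs of each sample, these gave scaling factors of 1.234, 1.241 and 1.099 for FASS and 0.815, 0.859 and 0.779 for small particles. The median gene then stood at a log2 fold change of -0.74. Scaled by total UMIs alone, the median was -0.22, and 54 genes were higher and 37 lower (59.3% higher, against 7.57% with size factors). Calls that held under all 4 scalings tried numbered 10 higher and 37 lower. Leaving out preparation 7, 8 or 9 left 47, 166 or 109 calls over 2535, 2950 or 2752 genes tested, and 45, 124 or 97 of these were among the 185.

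The fold change also moved with the level of a gene. The filter took UMIs from 9 wells of small particles and 3 FASS libraries, and the part of this imbalance was not tested beyond the fit of technical repeat 1 alone, where the median over 1912 genes was -0.51. In the fit of all repeats, the median log2 fold change was -1.35 over 1741 genes at 20 to 50 scaled CPM, -0.62 over 1162 genes at 50 to 100, -0.39 over 748 genes at 100 to 300, -0.06 over 213 genes at 300 to 1000 and 0.02 over 105 genes at 1000 or more. Of the 171 genes lower in FASS, 110 had at least 50 small particle UMIs. Another subset of 35 genes had no FASS UMI at all, and for these only a bound can be given, from at least 2.37-fold to at least 5.97-fold lower, with 3 UMIs over the FASS group as the limit. The highest of these bounds was that of *Rps6ka3*, of whose 58 small particle UMIs 47 were in 1 well of preparation 7.

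**Figure D2:**
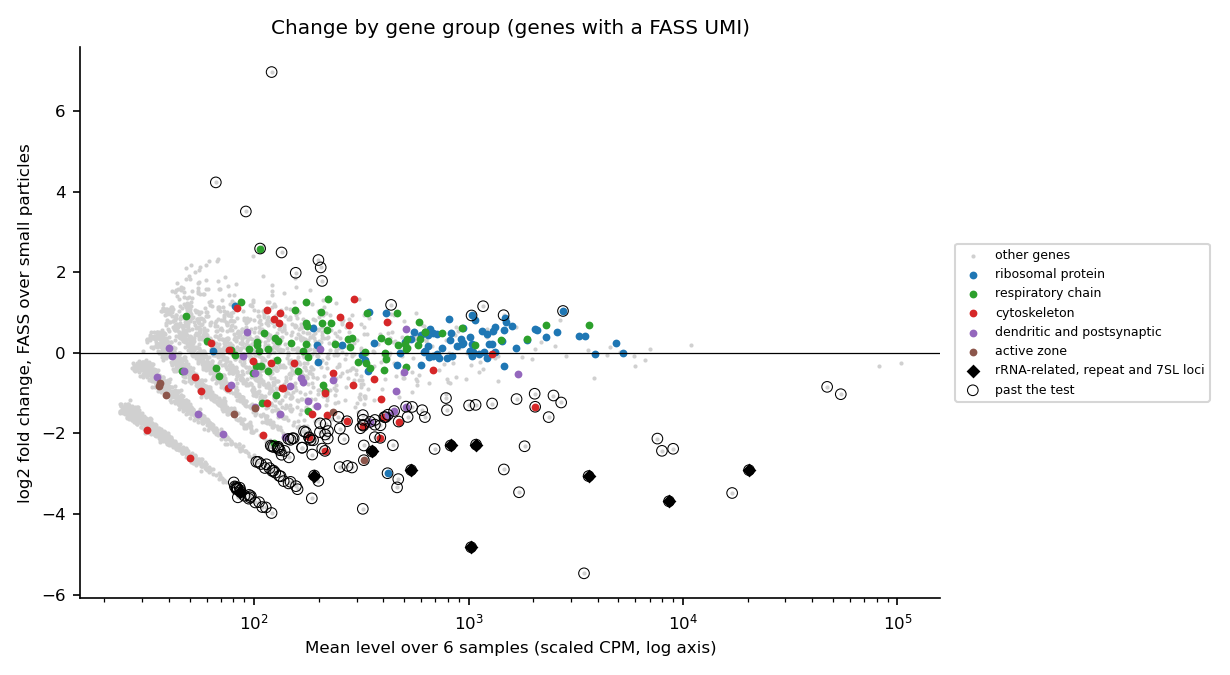
Log2 fold change of FASS over small particles (vertical axis) against mean level over the 6 samples (scaled CPM, log axis) for genes with at least 1 FASS UMI; colors mark gene groups, black diamonds the rRNA-related, repeat and 7SL loci, and open circles genes past the test. Of the 79 ribosomal protein genes 58 lie above 0, while cytoskeletal and dendritic genes past the test lie below 0.

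Among the 14 genes higher in FASS were 2 for ribosomal proteins. *Rps15*, a protein of the small ribosomal subunit, stood at 1628, 2150 and 1584 scaled CPM in small particles and 2735, 4566 and 3872 in FASS (log2 1.04, SE 0.27, adjusted p = 0.00696). *Rps2*, of the same subunit, stood at 774, 689 and 648 against 1196, 1141 and 1745 (log2 0.93, SE 0.30, adjusted p = 0.0466). *Sepw1*, the redox protein selenoprotein W, stood at 647, 797 and 720 against 1949, 1665 and 1234 (log2 1.16, SE 0.30, adjusted p = 0.00623). For these 3 genes every FASS level lay above every small particle level. The call of *Rps15* was lost under TMMwsp, another library scaling (adjusted p = 0.0577) and without preparation 9 (log2 0.93, adjusted p = 0.0825), that of *Sepw1* without preparation 7 (log2 0.94, adjusted p = 0.182), and that of *Rps2* without any 1 preparation (adjusted p = 0.0535 to 0.256).

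Several other genes of this set rested on few molecules. *Cnih2*, an auxiliary subunit of AMPA-type glutamate receptors, had 4, 8 and 6 UMIs in small particles and 9, 10 and 5 in FASS, at a log2 fold change of 2.12 (SE 0.53, adjusted p = 0.00455). *Pkig*, an inhibitor of protein kinase A, had 4, 9 and 3 UMIs against 7, 7 and 10 (log2 2.31, SE 0.55, adjusted p = 0.00221). *Rpl3-ps1*, a pseudogene of a ribosomal protein gene whose reads may be shared with its parent, had 3, 3 and 3 UMIs against 3, 7 and 6 (log2 2.49, adjusted p = 0.0118). Unlike these, *Pcsk1n*, the precursor of a prohormone convertase inhibitor, was well counted. It stood at 1016, 991 and 964 scaled CPM against 1504, 2093 and 2170 (log2 0.94, adjusted p = 0.0302). The calls of the first 3 of these 4 genes were each lost when a preparation was left out. This was so for *Cnih2* without 7 or 8 (adjusted p = 0.118 and 0.0534) and *Pkig* without 9 (adjusted p = 0.079). It was also so for *Rpl3-ps1* without 8 or 9 (adjusted p = 0.131 and 0.075), and the call of *Pcsk1n* was not recomputed. *Ppp1r1a*, *Gnb2* and *Oaz1* were the other genes with UMIs in all FASS libraries outside the respiratory chain. *Cd109*, *Scgb1a1* and *Gm20268* passed the test with 17, 15 and 9 UMIs in a single FASS library each and none in the others, so their values describe that library.

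Among the 79 ribosomal protein genes tested, 58 had a positive log2 fold change, against 1070 of all 3977 genes tested. Of the 79, 2 passed the test upward and 1 downward, and the median was 0.24. Without overlap, 25 were higher and 1 lower. Under total UMIs the median was 0.78 and 15 passed upward. *Rpl13* was typical of those near the threshold, with 901, 1160 and 1094 scaled CPM in small particles and 1983, 2093 and 1660 in FASS (log2 0.87, adjusted p = 0.0509).

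Of the 75 respiratory chain genes tested, 51 had a positive value, 1 passed the test upward, none passed downward and the median was 0.22 (0.75 under total UMIs, with 8 upward). *Cyc1*, the cytochrome of complex III, passed on few molecules, with 2, 2 and 3 UMIs in small particles and 8, 4 and 2 in FASS (log2 2.59, SE 0.74, adjusted p = 0.0169). Its call was lost without preparation 7 or 8 (adjusted p = 0.282 and 0.0711). *Cox8a*, a subunit of cytochrome oxidase, had 243, 229 and 185 UMIs against 104, 107 and 116, or 2806, 2766 and 2663 scaled CPM against 3555, 5089 and 4936 (log2 0.70, adjusted p = 0.104). Both groups thus stood higher as shares of UMIs, with few single members past the test.

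The genes encoded in mitochondrial DNA did not follow the nuclear ones gene by gene. Of 14 tested, 3 were lower in FASS and none higher, and the median was -0.32, which became 0.23 under total UMIs. The median over all genes tested was -0.74, or -0.22 under total UMIs, with 171 of 3977 lower in the main fit. *mt-Rnr1*, the small ribosomal RNA of mitochondria, stood at 63312, 74816 and 80845 scaled CPM in small particles and 35689.8, 31152 and 40807 in FASS (log2 -1.03, SE 0.27, adjusted p = 0.00728). *mt-Atp8* and *mt-Nd6* fell by 1.06 and 1.34 on the log2 scale (adjusted p = 0.00923 and 0.0145). All 3 calls were lost under total UMIs, TMM, TMMwsp, without the preparation block and with the block in the 6 samples alone, that of *mt-Rnr1* also without any 1 preparation (adjusted p = 0.0972 to 0.124), and those of *mt-Atp8* and *mt-Nd6* without preparation 8 (adjusted p = 0.112 and 0.131) or 9 (adjusted p = 0.122 and 0.109).

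The cytoskeleton list had the highest count of genes lower in FASS, 9 of 41 tested with none higher. As a share this was like 3 of 14 mitochondrially encoded genes, 3 of 14 genes of calcium handling and ion pumps and 2 of 10 active zone genes. Of all 3977 genes tested, 171 were lower. The list median was -0.86, against -0.74 over all genes tested. The 9 cytoskeleton genes encode motors of microtubule transport and large linker proteins. *Kif5a*, a kinesin heavy chain of neurons, stood at 3291, 2452 and 2994 scaled CPM in small particles and 855, 1094 and 1574 in FASS (log2 -1.34, SE 0.29, adjusted p = 0.000586). *Kif1a*, the kinesin that carries synaptic vesicle precursors, had 52, 44 and 51 UMIs against 2, 1 and 8 (log2 -2.11, SE 0.45, adjusted p = 0.000431). *Kif5b*, *Dync1h1*, *Map1a*, *Sptbn1*, *Dynll2*, *Dst* and *Macf1* fell by 1.59 to 2.43 on the log2 scale.

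Other members did not pass the test. *Actb*, an actin, stood at 1155, 1244 and 1512 scaled CPM in small particles and 1162, 1189 and 1447 in FASS (log2 -0.04, SE 0.29, adjusted p = 0.952). *Cfl1*, which severs actin filaments, stood at 300.2, 326 and 302 against 581, 523 and 468 (log2 0.76, adjusted p = 0.193). The whole list made up 1.36%, 0.984% and 1.198% of UMIs in small particles and 0.945%, 1.09% and 1.12% in FASS, with overlap. Under total UMIs none of the 9 genes passed the test, and without preparation 7 none did, with *Kif5a* at a log2 fold change of -1.02 (adjusted p = 0.12) and *Kif1a* at -1.72 (adjusted p = 0.0504). DESeq2 called 8 members of this list lower and 1 higher, and 1 was also higher under total UMIs and with a filter of 50 UMIs. TMMwsp and a filter of 1 UMI each called 4 members lower.

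Of 29 dendritic and postsynaptic genes tested, 5 were lower and none higher, with a median of -0.81. The figures for all genes tested were 171 of 3977 lower and a median of -0.74. *Camk2a*, the kinase of the postsynaptic density whose mRNA is a known resident of dendrites, stood at 993, 362 and 835 scaled CPM in small particles and at 308, 143 and 426 in FASS (log2 -1.33, SE 0.39, adjusted p = 0.0195). In small particles of preparation 8 its level lay below the highest FASS level, so the fractions overlapped. *Gria2* and *Grin2b*, subunits of glutamate receptors, fell by 1.71 and 1.54 on the log2 scale (adjusted p = 0.00959 and 0.0136), and *Map2*, the dendritic microtubule protein, by 1.44 (adjusted p = 0.0147). *Shank1*, a scaffold of the postsynaptic density, had 9, 8 and 6 UMIs against 0, 0 and 0, at least 2.37-fold lower. *Nrgn*, a dendritic calmodulin-binding protein with a short mRNA, stood at 531, 314 and 374 scaled CPM against 581, 713 and 553 (log2 0.60, adjusted p = 0.328). The 5 calls were lost without the preparation block, under total UMIs, under TMMwsp and with a filter of 1 UMI. They were also lost without preparation 7, where *Camk2a* stood at -1.08 (adjusted p = 0.25) and *Gria2* at -1.34 (adjusted p = 0.235). Those of *Grin2b* and *Map2* were also lost without preparation 9 (adjusted p = 0.235 and 0.118). DESeq2 called 1 member, as did TMM and the fit of the 6 samples alone with the block.

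Genes of the presynaptic release site held a small share of UMIs. The active zone list made up 0.158%, 0.132% and 0.111% of UMIs in small particles and 0.0633%, 0.0413% and 0.0421% in FASS, a ratio of 0.366 with no overlap. Of 10 members tested, 2 were lower and none had a positive value, whereas 171 of all 3977 genes tested were lower and 1070 had a positive value. *Rims1*, a scaffold that docks vesicles, stood at 381, 1015 and 317 scaled CPM in small particles and 103, 47.6 and 85.1 in FASS (log2 -2.66, SE 0.54, adjusted p = 0.000116), a call that was lost without preparation 8 (log2 -1.85, adjusted p = 0.061). Its paralog *Rims2* had 13, 11 and 3 UMIs against 0, 0 and 0, at least 2.78-fold lower, a call lost without preparation 7 or 8 (adjusted p = 0.235 and 0.0804) and under total UMIs (adjusted p = 0.119). *Bsn*, the giant scaffold Bassoon, had 20, 3 and 11 UMIs against 1, 3 and 0 (log2 -1.36, SE 0.75, adjusted p = 0.273).

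Synaptic vesicle genes held 0.538%, 0.307% and 0.527% of UMIs in small particles and 0.544%, 0.431% and 0.318% in FASS, with overlap. Of 33 tested, 2 were lower and none higher, with a median of -0.88 (-0.76 with genes absent from FASS at their bound). This count is near the 4.3% lower over all genes tested, whose median was -0.74 (-0.53 with such bounds). *Cltc*, the clathrin heavy chain that coats recycling vesicles, had 34, 19 and 19 UMIs against 1, 0 and 4 (log2 -2.16, adjusted p = 0.0166). *Sv2c*, a vesicle glycoprotein, had 10, 4 and 10 UMIs against none, at least 2.47-fold lower. Neither call held under total UMIs, under TMMwsp, with a filter of 1 UMI or in the 6 samples alone with the block. That of *Cltc* was lost without preparation 7 or 8 (adjusted p = 0.266 and 0.0874), and that of *Sv2c* without any 1 preparation (adjusted p = 0.0612 to 0.235). *Snap25*, a core protein of vesicle fusion, had 36, 18 and 21 UMIs against 4, 9 and 4 (log2 -0.41, adjusted p = 0.622). *Syt1*, its calcium sensor, had 64, 28 and 75 UMIs against 13, 3 and 12 (log2 -0.96, adjusted p = 0.121).

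Among genes of calcium handling and ion pumps, 3 of 14 tested were lower and all 14 had negative values. Of all 3977 genes tested, 171 were lower and 2907 had negative values. The list median was -0.74, as it was over all genes tested. *Itpr1* and *Ryr2* encode the calcium release channels of the endoplasmic reticulum. *Itpr1* stood at 762, 302 and 734 scaled CPM in small particles and 137, 95.1 and 298 in FASS (log2 -1.80, SE 0.44, adjusted p = 0.00371). *Ryr2* had 13, 6 and 12 UMIs against none, at least 3.19-fold lower. *Slc24a2*, a sodium-calcium exchanger, fell by 1.88 on the log2 scale (adjusted p = 0.0184). The 3 calls were lost under total UMIs and without preparation 7, where *Itpr1* stood at -1.39 (adjusted p = 0.182). Those of *Ryr2* and *Slc24a2* were also lost without preparation 9 (adjusted p = 0.0828 and 0.286). TMMwsp and a filter of 1 UMI each kept 2 of the 3 calls. *Canx*, the chaperone calnexin, was the gene of the endoplasmic reticulum list that was lower (log2 -1.59, adjusted p = 0.0444), and 15 members of that list were tested. A count of 1 of 15 is near the 4.3% lower over all genes tested. The call of *Canx* was lost under total UMIs (adjusted p = 0.334) and without preparation 7 or 9 (adjusted p = 0.254 and 0.292). It was also lost under TMMwsp and TMM, with a filter of 1 UMI, by DESeq2 and without the preparation block.

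Markers of astrocytes and of striatal spiny neurons were also among the genes tested. In the astrocyte list, 3 of 21 tested genes were lower and none was higher, where 171 of all 3977 genes tested were lower. The list held 1.63%, 1.65% and 1.47% of UMIs in small particles against 1.83%, 2.05% and 1.66% in FASS. *Slc1a2*, the main glutamate transporter of astrocytes, stood at 3810, 2984 and 3858 scaled CPM in small particles and 1060, 1189 and 1277 in FASS (log2 -1.59, SE 0.29, adjusted p = 8.73e-06). *Slc1a3*, the other astrocytic glutamate transporter, fell by 1.66 (adjusted p = 0.0144), and *Sparcl1*, a secreted matrix protein, by 1.12 (adjusted p = 0.0261). *Aldoc*, a glycolytic enzyme of astrocytes, stood at 1813, 1897 and 2217 against 1914, 2568 and 1872 (log2 0.09, adjusted p = 0.885). The 3 calls were lost under total UMIs, where 1 member of the list was higher. TMMwsp and a filter of 1 UMI each kept 1 of the 3 calls. Those of *Slc1a3* (log2 -1.32, adjusted p = 0.215) and *Sparcl1* (log2 -0.81, adjusted p = 0.272) were lost without preparation 7. That of *Slc1a3* was also lost without preparation 9 (adjusted p = 0.227).

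In the spiny neuron list *Adcy5*, the adenylyl cyclase of striatal signaling, was the 1 gene lower of 15 (log2 -1.79, SE 0.48, adjusted p = 0.0105), with 57, 19 and 40 UMIs against 1, 1 and 9. For the list, 1 of 15 is near the 4.3% lower over all genes tested. Without preparation 7, *Adcy5* stood at -0.95 (adjusted p = 0.41), and its call was also lost under total UMIs (adjusted p = 0.233). It was further lost under TMMwsp, with a filter of 1 UMI, by DESeq2 and without the preparation block. No gene of the microglia, glutamatergic cortical neuron, interneuron, endothelial, glycolysis or translation factor lists passed the test. Of the 18 dopaminergic genes, 15 were at 0 in all FASS libraries, and 12 of the 18 were at 0 in all 6 samples.

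**Figure D3:**
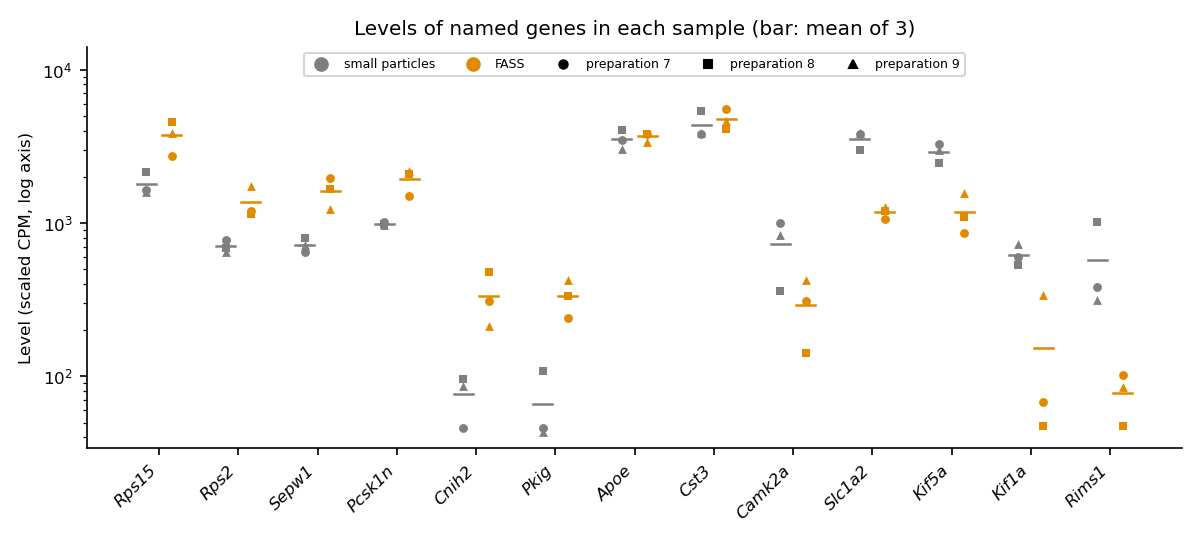
Level (scaled CPM, log axis) of 13 named genes in each of the 6 samples, with small particles in gray, FASS in orange, a symbol for each preparation and a bar at the mean of 3. The levels of *Rps15* and *Sepw1* do not overlap between the fractions and are higher in FASS. Those of *Apoe* and *Cst3* overlap as scaled CPM, though not as CPM of total UMIs, where FASS is higher. Those of *Slc1a2*, *Kif5a* and *Rims1* do not overlap and are lower in FASS.

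A feature that the gene lists had not used was the length of the mRNA. The length of the longest annotated coding transcript was set beside the fold change for 952 nuclear protein-coding genes at 100 scaled CPM or more. Spearman's correlation across these genes was -0.652, and it was -0.644 over the 810 genes left without ribosomal protein and respiratory chain genes. Genes are not independent replicates, and all points share the same 6 samples, so this is a description. In single preparations the correlation was -0.674, -0.288 and -0.500 for preparations 7, 8 and 9, weakest in preparation 8. The median log2 ratio of genes under 2000 bases was 0.37, 0.10 and 0.20, and that of genes of 4000 bases or more was -1.62, -0.56 and -1.15.

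The gradient was seen at each level of expression. Among genes at 100 to 300 scaled CPM, the median log2 fold change was 0.30 under 1 kb, 0.25 from 1 to 2 kb, -0.36 from 2 to 4 kb, -1.11 from 4 to 8 kb and -1.39 above 8 kb, over 80, 160, 191, 166 and 92 genes. At 300 scaled CPM or more, the medians were 0.34, 0.16, -0.37, -1.10 and -1.60, over 87, 59, 54, 45 and 18 genes. There 1.15% of genes under 1 kb were lower in FASS past the test, against 42.2% from 4 to 8 kb and 66.7% above 8 kb. Genes lower in FASS had a median length of 6439.5 bases (n = 100), genes higher 1306 bases (n = 11) and the others 2343 bases (n = 841), all at 100 scaled CPM or more.

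**Figure D4:**
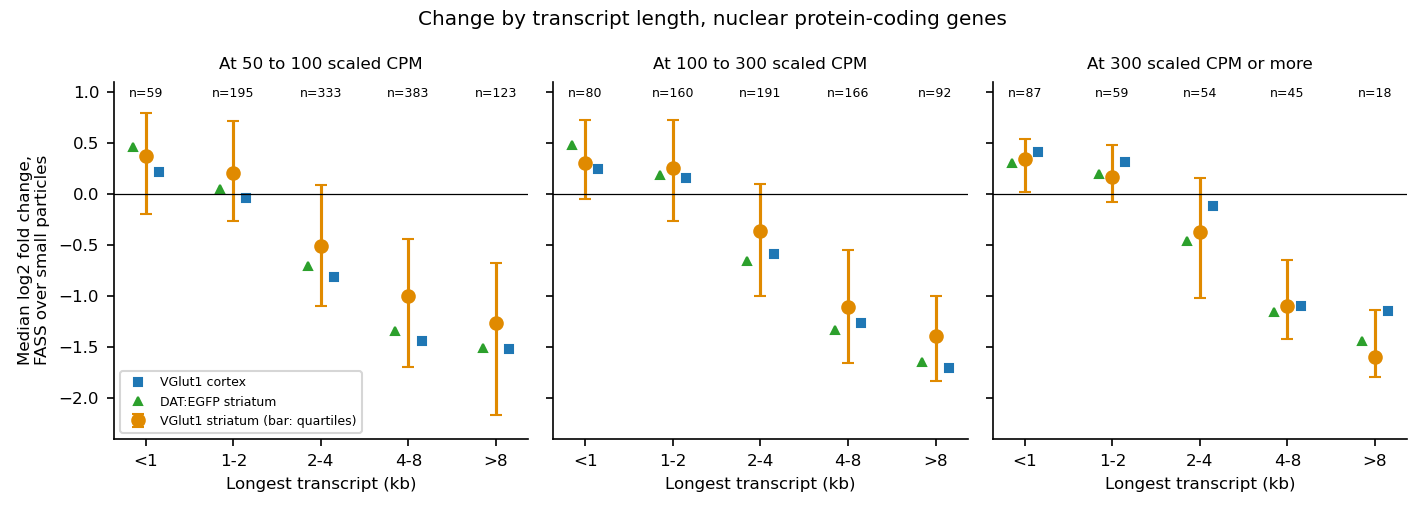
Median log2 fold change of FASS over small particles (vertical axis) for nuclear protein-coding genes in 5 classes of transcript length (kb), in panels for 3 ranges of level, with the number of genes above; orange circles are the striatal VGlut1 sort with bars for the quartiles, blue squares the cortical VGlut1 sort and green triangles the striatal DAT:EGFP sort. In each panel, all 3 sorts have medians above -0.1 under 2 kb and below -0.9 from 4 kb upward.

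Gene groups can be read against other genes of like length. Under 2000 bases and at 50 scaled CPM or more, 440 genes on none of the lists had a median log2 fold change of 0.25. In the same class, the median was 0.26 for 73 ribosomal protein genes, 0.24 for 63 respiratory chain genes and 0.47 for 12 cytoskeleton genes. At 4000 bases or more, 736 genes on none of the lists had a median of -1.13. There it was -1.53 for 17 cytoskeleton genes, -1.08 for 22 dendritic genes and -1.18 for 13 synaptic vesicle genes. The lists have unlike lengths as a whole, with a median of 906 bases for ribosomal protein genes and 7446 bases for active zone genes. The number of wells goes with the fraction here, except in the fit of technical repeat 1 alone. The part of length or RNA integrity in the differences was not tested.

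The question whether the sort of VGlut1 terminals in the striatum differed from the other sorts was tested in the same fit, as the difference between fold changes. Against the cortical VGlut1 sort, 3 of 3977 genes differed (0.0754%), and against the striatal DAT:EGFP sort 3 did (0.0754%), where 175 and 170 had an unadjusted p under 0.05. The genes were *Angptl2*, *Ick* and *Agxt* against cortex, and *Agxt*, *Angptl2* and *D10Wsu102e* against DAT:EGFP. No ribosomal protein, respiratory chain, cytoskeletal, dendritic or glial gene of the lists differed past the test. DESeq2 gave 0 genes in both comparisons, with 90 and 74 at an unadjusted p under 0.05, and edgeR without the preparation block also gave 0, with 188 and 197. A p above the threshold does not show that the sorts act alike.

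For some of the named genes the values of the other sorts are set beside those given above. *Rps15* had a log2 fold change of 1.05 in cortex (adjusted p = 0.00221) and 0.74 in the DAT:EGFP sort (adjusted p = 0.00209), beside 1.04 here. *Slc1a2* had -2.21 in cortex (adjusted p = 1.83e-12) beside -1.59 here, and *Rims1* -2.36 (adjusted p = 4.84e-07) beside -2.66. *Rn7s2* had -2.64 in cortex (adjusted p = 1.52e-10) beside -4.83 here, and the difference had an adjusted p of 0.893. *Kcns2* had -2.10 in cortex (adjusted p = 1.70e-11) beside -3.48, with an adjusted p of 0.341 for the difference. *Slc17a7* had -2.58 in cortex (adjusted p = 0.018) beside 0.94 on few UMIs, with an adjusted p of 1 for the difference. Over 1066 genes at 100 scaled CPM or more, whose libraries the sorts do not share, Pearson's r between the fold changes was 0.728 with cortex and 0.726 with DAT:EGFP, a description over genes of a common plate. The correlation of length with fold change was -0.704 in cortex and -0.728 in DAT:EGFP.

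Some genes that differed between sorts did so through a few wells. *Agxt*, a liver enzyme of glyoxylate metabolism, had 9, 1671 and 14 UMIs in small particles and 4, 1 and 1 in FASS (log2 -5.47, SE 0.60, adjusted p = 4.56e-17), and 1662 of them were in 1 well of preparation 8. Without preparation 8 its log2 fold change was -0.60 (adjusted p = 0.687). *Ick*, a kinase gene, had 26, 303 and 8 UMIs in the technical repeats of preparation 7, 365, 4 and 9 in those of preparation 8, and 75, 79 and 26 in those of preparation 9. With the median of the repeats in place of the sum, an alternative chosen after seeing the data, its log2 fold change was 0.45 (adjusted p = 0.460) in place of -1.23 (adjusted p = 0.0017), and without preparation 7 it was -0.68 (adjusted p = 0.269). *Angptl2*, a secreted protein gene, had 141, 106 and 42 UMIs in small particles against 6, 4 and 6 in FASS (log2 -2.39, SE 0.40, adjusted p = 6.10e-07). Of the 171 genes lower in FASS, 10 had over 50% of their small particle UMIs in 1 of the 9 wells.

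**Figure D5:**
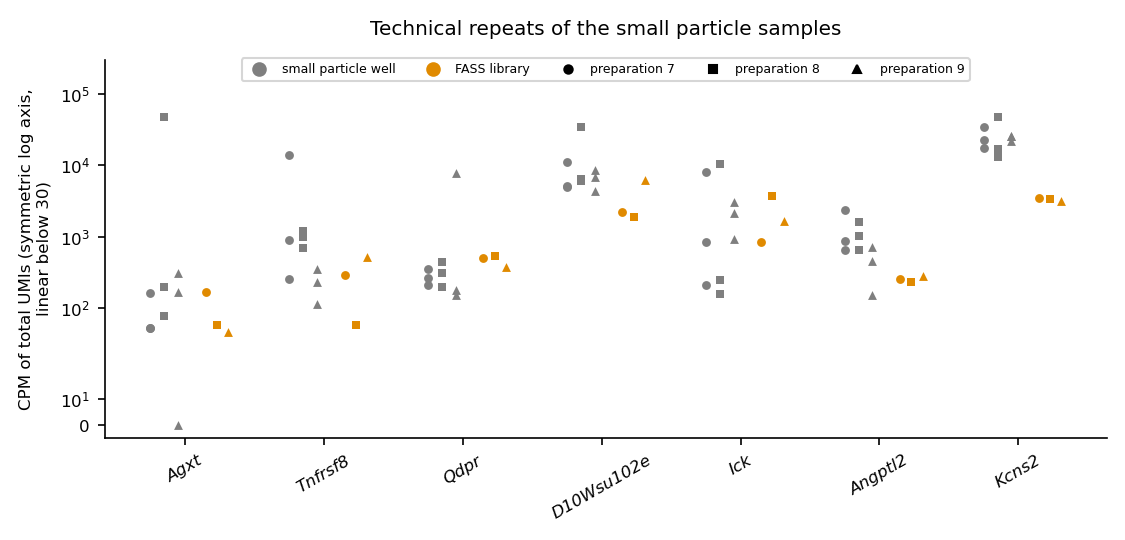
CPM of total UMIs (symmetric log axis) of 7 genes in the 9 small particle wells (gray) and 3 FASS libraries (orange), with a symbol for each preparation. A single well is far above the other 8 for *Agxt*, the repeats of *Ick* spread within preparations 7 and 8, and the 9 wells of *Kcns2* all lie above the 3 FASS libraries.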

How the data were processed

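The deposited values were whole UMI counts per gene. To make them the authors removed poly(A), mapped reads with STAR (GRCm38, GENCODE vM10) and merged duplicate UMIs. Per the labels, 48 wells of 1 plate held 12 preparations, and small particle samples had 3 technical repeats, summed here. No well was left out. FASS and small particle samples of a number came from 1 preparation, so preparation was a block. Deviations of same-numbered samples correlated at -0.094, 0.013 and 0.067 over 1066 genes. Replicates are preparations, and whether they came from separate animals is not stated.

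Genes reaching 10 UMIs in the 6 samples together were tested by edgeR 4.0.16 (quasi-likelihood, R 4.3.3, 9 residual degrees of freedom) with median-of-ratios size factors from DESeq2 1.42.0 and Benjamini-Hochberg adjustment at 0.05. The fit was tested on simulated data. Totals were compared by exact permutation, and length and place were read from GENCODE vM21, which matched 3974 of 3977 genes by ID. Alternatives were TMMwsp, TMM, total UMIs, filters of 1 and 50 UMIs, DESeq2's likelihood ratio test, no block, repeat 1 alone, the 6 samples alone and each preparation left out; the median of repeats and leaving out 15 abundant or repeat loci were added after seeing the data. Depth was 16947 to 23709 UMIs in FASS, where 3 UMIs pooled are 48.4 CPM.

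Named genes were the 8 smallest p in each direction among called genes of at least median level, up to 4 per list, *Slc17a7* and genes the paper names, and 3 per test of sorts; others were named after their values were seen, and results for a few of these genes are left out here. Members, tests and the 24 lists were chosen with earlier results of these data known. List medians and counts carry no test.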

Additional observations from a re-analysis of the deposited data

Results flagged for a closer look

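Among 30 named genes with at least 30 UMIs in a small particle well, 2 had 1 of the 9 wells far from the others by Dixon's test, which flags about 1 in 20 such sets by chance. The wells are technical repeats of 3 preparations. *Agxt* stood at 47548 CPM in repeat 1 of preparation 8, with 1662 UMIs, where the other wells ranged from 0 to 311 CPM. *D10Wsu102e* stood at 34498 CPM in repeat 3 of preparation 8, with 1236 UMIs, where the others ranged from 4341 to 11183 CPM.

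The effect of sorting differed from that in the cortical VGlut1 sort for *Angptl2*, by -3.14 on the log2 scale (adjusted p = 2.53e-05), for *Ick*, by -2.66 (adjusted p = 2.53e-05), and for *Agxt*, by -4.85 (adjusted p = 0.000300). Of the *Ick* UMIs, 303 and 365 were in 2 of the 9 small particle wells. It had a log2 fold change of 1.43 in cortex (adjusted p = 0.00263), where 129 of the 146 FASS UMIs were in 1 library. From the DAT:EGFP sort, the effect differed for *Agxt*, by -4.95 (adjusted p = 1.60e-05), for *Angptl2*, by -2.30 (adjusted p = 0.0187), and for *D10Wsu102e*, by -1.52 (adjusted p = 0.0271). *Angptl2* was counted at 0, 25 and 45 UMIs in cortical FASS and at 16, 49 and 25 in cortical small particles. In DAT:EGFP FASS it was counted at 0, 0, 34, 5, 6 and 6 UMIs, with most of them in 1 library.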

How the results depend on the processing

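The count of genes that differed between FASS and small particles was 185 (14 higher, 171 lower). It was 100 under TMMwsp (90 lower), 91 under total UMIs (54 higher, 37 lower), 83 with a filter of 1 UMI (6 higher, 77 lower), 110 by DESeq2 (96 lower), 120 with no replicate block (109 lower), 104 with technical repeat 1 alone (8 higher, 96 lower) and 103 for the 6 samples alone with the replicate block (89 lower); the 6 samples alone with no block gave 24 higher, and the filter of 50 UMIs gave 109 lower. Without 1 preparation, calls ranged from 47 to 166, with 6 to 13 higher and 41 to 153 lower. The difference from the cortical sort was called for 3 genes, and for 0 with the filter of 50 UMIs, DESeq2 or no block, 1 with repeat 1 alone and 4 to 5 without 1 preparation. That from DAT:EGFP was called for 3, for 1 under TMMwsp, TMM, total UMIs or the median of repeats, 0 with the filter of 50 UMIs, DESeq2 or no block, and 2 to 5 without 1 preparation. For total UMIs, FASS over small particles, the log10 ratio was -0.675, and -0.198 or -0.2158 with the mean well or repeat 1 alone. *Ick* reversed to 0.45 with the median of repeats. The cause of these changes was not tested, beyond fewer genes or UMIs entering some fits. Among other values, of named genes and list shares, 1344 stayed the same, 240 lost a call, 18 gained one and 45 moved. A value stayed the same if its call was kept in direction. An uncalled gene did so within 1 SE of the main value, and a share within 1 SD. Beyond these limits, uncalled genes and shares counted as moved. With 16947 to 23709 FASS UMIs, a gene under 48.4 CPM lies below the pooled limit of 3 UMIs.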

Other observations

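Some other noncoding RNAs are named here after their values were seen, whereas none of the 6 members tested of the nuclear RNA list passed the test. *Rn7sk*, the RNA that holds the elongation factor P-TEFb inactive in the nucleus, had 13, 10 and 9 UMIs in small particles and none in FASS (adjusted p = 0.0144). *Rny3*, a Y RNA, had 18, 31 and 9 UMIs against 1, 0 and 2 (log2 -2.43, adjusted p = 0.0374). *Tug1*, a long noncoding RNA of nucleus and cytoplasm, had 49, 27 and 37 UMIs against 1, 1 and 3 (log2 -2.81, adjusted p = 0.000109). *Malat1*, an abundant nuclear RNA, had 84, 53 and 105 UMIs against 11, 15 and 24 and did not pass the test (log2 -0.59, SE 0.33, adjusted p = 0.277).

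Pseudogenes held 2.33%, 2.72% and 2.43% of UMIs in small particles and 3.84%, 2.91% and 5.55% in FASS, with no overlap. The pseudogene *Gm20775* alone held 2.79% in FASS of preparation 9 and 0.148% to 0.3501% in the other samples. *Dusp10* alone held 9.20%, 8.97% and 9.42% of small particle UMIs and 10.2%, 11.8% and 12.1% of FASS UMIs, with no difference past the test (log2 -0.24, adjusted p = 0.636). At an equal depth of 16947 UMIs, 4220, 3806 and 4171 genes would be seen in small particles and 3748, 3805 and 3707 in FASS.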
